A study of Mus musculus with 16 samples.

Results

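Of the 41585 rows of the count table, 8 genes that carry glucose across the hepatocyte membrane, break it down and make it anew were followed in mouse liver. They were the glucose carrier gene Slc2a2, the glycolysis genes Pfkl, Pfkfb1 and Gapdh, and the gluconeogenesis genes Pck1, G6pc, Fbp1 and Pcx. They were chosen by symbol, all 8 were found, and all 8 were among the 13470 genes that passed the filter on low counts. The livers came from C57BL/6 mice kept on a diet with 60% fat for 16 weeks. There were 4 groups of 4 libraries each: Cyp2b-null females, hCYP2B6-Tg females, Cyp2b-null males and hCYP2B6-Tg males. Cyp2b-null mice lack mouse Cyp2b genes and hCYP2B6-Tg mice carry human CYP2B6, a P450 enzyme of the liver that oxidises drugs and fatty acids. The series asks what the human enzyme does to the liver in diet-induced obesity. The sources used here do not give which Cyp2b genes are missing, whether the hCYP2B6-Tg mice lack them too, what drives the transgene or how old the mice were. A group on a normal diet was not analysed here, so every value below is from a high-fat liver.

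The liver takes up glucose after a meal and releases it during a fast. Glucose crosses the hepatocyte membrane through the carrier GLUT2, and glycolysis and gluconeogenesis then run between glucose and pyruvate over shared reversible steps and a few one-way steps with an enzyme for each direction. Insulin, glucagon, glucocorticoids and the clock set the transcription of the one-way enzymes, above all Pck1 and G6pc, whose mRNA changes within hours of feeding or fasting. The labels give neither the hour of collection nor whether the mice had been fasted.

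The promoters are shown for the genes that varied most between libraries (Pck1 and G6pc), whose transcription is known to answer to cAMP and insulin, and for 2 that were steady but differed by sex (Pcx and Slc2a2). The sequences are from RefSeq (GRCm38.p6), the build named by the submitters, and each is the 250 bases before an annotated start site, 5′ to 3′ on the coding strand. The capitals mark matches on either strand to 5 motifs: TNACGTNA, a cAMP response element, which 3.83% of the 32851 RefSeq promoters of this length hold; CAAAACA, the core of an insulin response sequence (5.56%); TGTTTNC, a forkhead site (17.8%); TTCNNNGAA, a STAT site (7.02%); and CACGTG, an E-box (6.02%). In Pck1 the capitals are a cAMP element that begins 93 bases before the start, and in G6pc they are an insulin response core, a cAMP element and a forkhead match that begin 174, 162 and 141 bases before it. The capitals in Pcx are an E-box 248 bases before the first of its start sites, and Slc2a2 had no match in this window.
Pck1, chr2:173152823-173153072, + strand: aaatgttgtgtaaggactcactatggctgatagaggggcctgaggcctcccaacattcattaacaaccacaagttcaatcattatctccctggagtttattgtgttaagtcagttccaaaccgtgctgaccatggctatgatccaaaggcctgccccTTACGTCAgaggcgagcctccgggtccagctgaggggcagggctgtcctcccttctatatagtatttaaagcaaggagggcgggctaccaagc
G6pc, chr11:101367466-101367715, + strand: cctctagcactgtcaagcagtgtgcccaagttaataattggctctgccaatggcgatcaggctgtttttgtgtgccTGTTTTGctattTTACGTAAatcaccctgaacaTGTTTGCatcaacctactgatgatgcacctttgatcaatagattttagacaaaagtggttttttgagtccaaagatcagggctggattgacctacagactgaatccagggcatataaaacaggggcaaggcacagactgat
Pcx, chr19:4510222-4510471, + strand: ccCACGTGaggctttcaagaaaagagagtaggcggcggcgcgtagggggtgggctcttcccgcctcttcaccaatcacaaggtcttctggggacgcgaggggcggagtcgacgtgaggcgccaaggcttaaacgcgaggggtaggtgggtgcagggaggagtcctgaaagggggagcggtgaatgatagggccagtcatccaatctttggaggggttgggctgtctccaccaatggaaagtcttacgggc
Slc2a2, chr3:28697653-28697902, + strand: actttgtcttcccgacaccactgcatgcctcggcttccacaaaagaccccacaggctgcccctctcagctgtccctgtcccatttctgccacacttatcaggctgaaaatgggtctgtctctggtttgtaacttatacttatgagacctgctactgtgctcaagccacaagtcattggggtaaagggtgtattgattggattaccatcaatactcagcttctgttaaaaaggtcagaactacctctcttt

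The other promoters in the table, 1 each of Pfkl, Gapdh and Fbp1, 4 of Pfkfb1 and the second of Pcx, had no match to these letters. A match is a description of the sequence and not a measured binding site, and the counts per gene do not tell apart the start sites of Pfkfb1 or Pcx.

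Library totals ran from 5584587 to 9672708 counts, and values are CPM, the counts of a gene scaled by the TMM-adjusted library total, as mean ± SD over n = 4 libraries. Fold changes are log2 ± standard error from edgeR's quasi-likelihood test, with p-values adjusted by Benjamini-Hochberg over the 13470 genes and a threshold of 0.05. The 16 libraries matched their labelled sex. The summed counts of Cyp2b10, Cyp2b19 and Cyp2b23 were 0 to 1 in the 8 Cyp2b-null libraries and 6 to 50 in the 8 hCYP2B6-Tg libraries. Whether reads of human CYP2B6 were counted in these mouse rows was not tested. The 8 hepatocyte markers (Alb, Ttr, Apoa1, Apob, Fgb, Tat, Cps1 and Asgr1) were all present and summed to between 105446 and 138764 CPM, and those of skeletal muscle, kidney tubule and fat cells to at most 2.58 CPM. The 6 pancreas acinar markers summed to 10.5 to 56.6 CPM, highest in a Cyp2b-null male, with Cpa1, Pnlip and Clps at 0 in all libraries. The labels do not state that libraries are separate animals. The p-values set group differences against the spread between these libraries, which may not be that between animals.

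**Figure D1:**
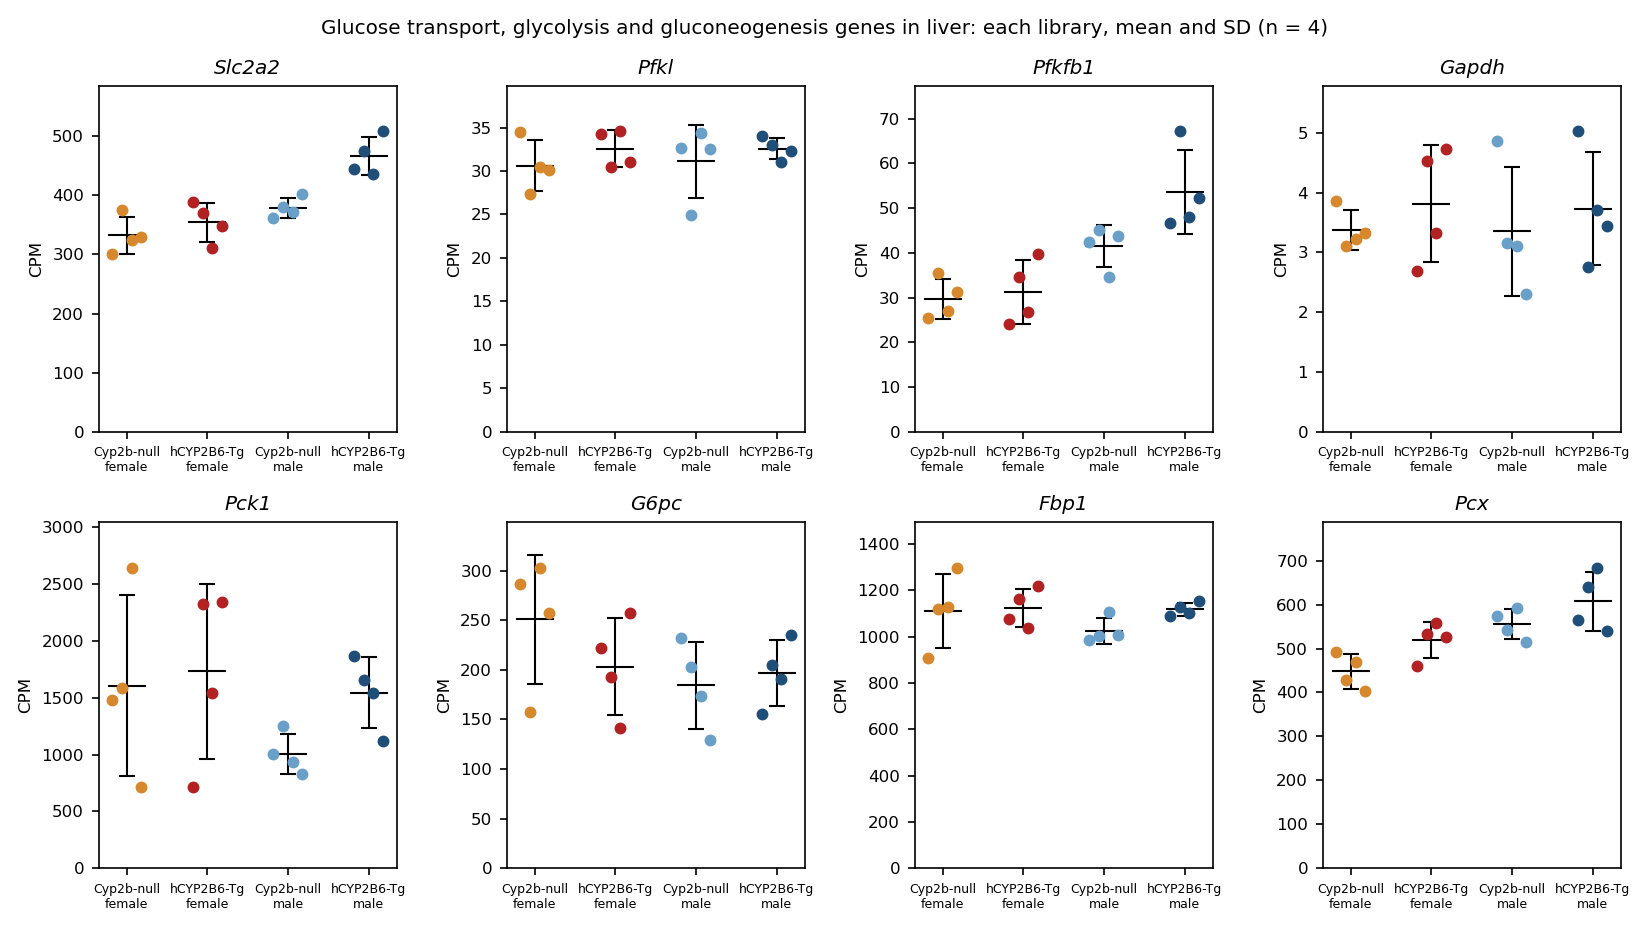
CPM of each of the 8 genes (linear axis from 0) in the 16 libraries, with a point for each library and the mean and SD of each group of 4. Slc2a2 and Pfkfb1 stand highest in hCYP2B6-Tg males, Pck1 is scattered from 715 to 2644 CPM in females, and Gapdh lies between 2.30 and 5.03 CPM throughout.

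Genotype moved none of these 8 genes past the threshold in either sex. Slc2a2, Pfkfb1 and Pcx had lower estimates in females than in males of both genotypes, and each passed the threshold in 1 genotype. Between hCYP2B6-Tg and Cyp2b-null females 0 of 8 passed (0% of all tested genes did), with adjusted p from 0.601 to 0.987. In males 0 of 8 passed, against 0.111% of all tested genes, with adjusted p from 0.272 to 0.969. At an unadjusted p under 0.05 there was 1 of 8 in females (Pcx; 7.59% of all tested genes) and 2 of 8 in males (Slc2a2 and Pfkfb1; 7.17%), and DESeq2 also called 0 of 8 in either sex. For sex, 1 of 8 passed in Cyp2b-null livers (Pcx; 7.52% of all tested genes) and 2 of 8 in hCYP2B6-Tg livers (Slc2a2 and Pfkfb1; 10.3%), each of them lower in females. The genotype effect differed between the sexes for 0 of 8 (0.0445% of all tested genes), with 0 at an unadjusted p under 0.05 (7.7% of all tested genes) and 0 by DESeq2.

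**Figure D2:**
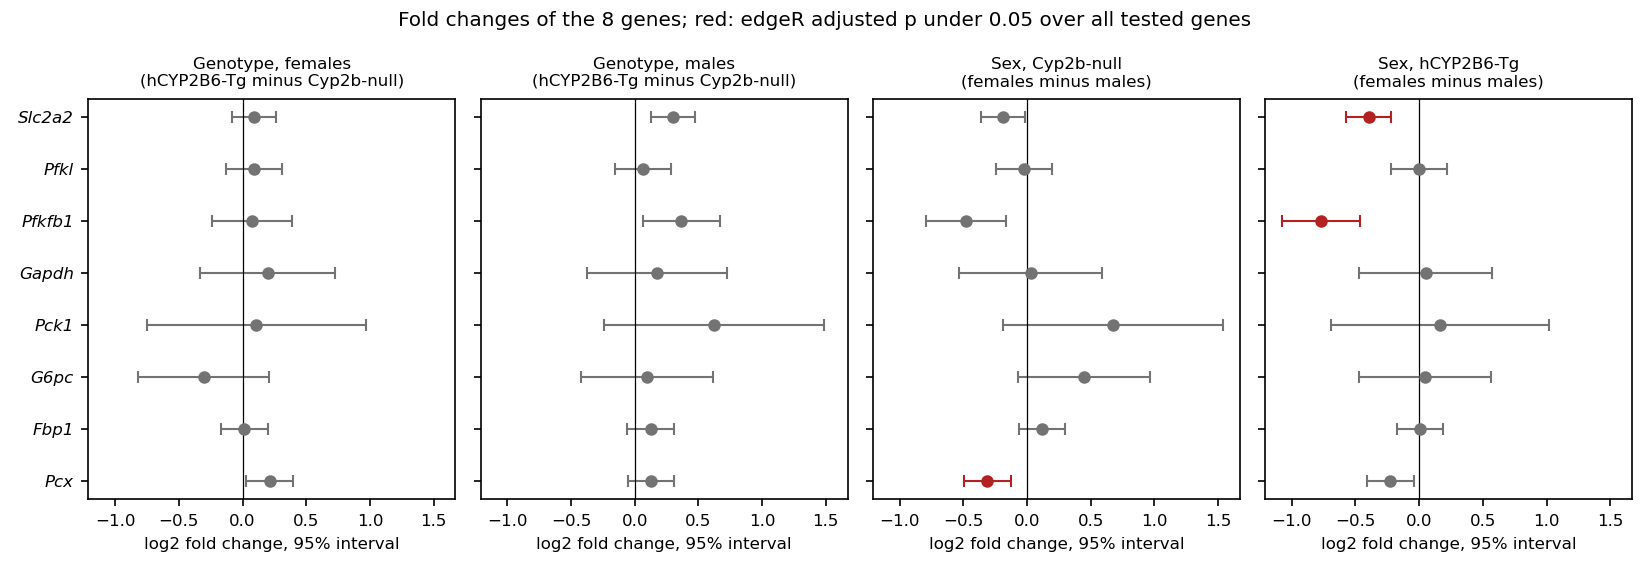
Log2 fold changes with 95% intervals from edgeR for the 8 genes in the 2 genotype and 2 sex comparisons, red where the adjusted p is under 0.05. The 3 red points are Pcx in Cyp2b-null and Slc2a2 and Pfkfb1 in hCYP2B6-Tg livers, all on the side of higher levels in males, and the intervals of Pck1 are the widest.

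Slc2a2 (chromosome 3, 28697903 to 28728361) encodes GLUT2, the carrier that lets glucose pass in both directions across the hepatocyte membrane. It was measured at 300.1, 375, 325 and 329 CPM in Cyp2b-null females 1, 3, 4 and 5 and at 388, 369, 311 and 347 CPM in hCYP2B6-Tg females 1, 2, 4 and 5. Males had 362, 379.8, 371 and 402 CPM in Cyp2b-null 1, 2, 3 and 4 and 445, 475, 437 and 509 CPM in hCYP2B6-Tg 2, 3, 4 and 5. All 4 hCYP2B6-Tg males thus lay above every library of the other groups, while the 2 female groups overlapped. The order of the group means was Cyp2b-null females (332 ± 31.1), hCYP2B6-Tg females (354 ± 33.1), Cyp2b-null males (379 ± 17.3) and hCYP2B6-Tg males (466 ± 32.7). Neighbours among the first 3 overlapped, and the hCYP2B6-Tg males overlapped none.

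Slc2a2 was lower in females than in males of the hCYP2B6-Tg genotype, by -0.40 ± 0.084 on the log2 scale (edgeR adjusted p = 0.00271), and the groups did not overlap, as was so in this direction for 8.2% of all tested genes. In Cyp2b-null livers the same comparison gave -0.19 ± 0.084 (adjusted p = 0.201). The genotype estimate was 0.30 ± 0.084 in males (adjusted p = 0.272) and 0.091 ± 0.084 in females (adjusted p = 0.844). The difference of the genotype effect between the sexes was 0.21 ± 0.12, with a 95% interval of -0.038 to 0.45 and an adjusted p of 0.712. The male groups did not overlap for Slc2a2 and Pfkfb1, 2 of 8, both higher in hCYP2B6-Tg, as was so for 2.4% of all tested genes. The summed hepatocyte markers did not overlap between these groups either, at 105446 to 111078 CPM in the Cyp2b-null males and 113069 to 118576 CPM in the hCYP2B6-Tg males, and their part in the result was not tested. In bulk liver, fewer cells of a type and less RNA per cell cannot be told apart.

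Pfkfb1 (chromosome X, 150587445 to 150643878) encodes the liver form of the bifunctional enzyme that makes and removes fructose 2,6-bisphosphate, the signal that turns glycolysis on and gluconeogenesis off. Its levels were 25.4, 35.5, 27.0 and 31.2 CPM in the Cyp2b-null and 24.0, 34.5, 26.9 and 39.7 CPM in the hCYP2B6-Tg females. Males had 42.5, 45.0, 34.7 and 43.8 CPM in Cyp2b-null and 46.6, 67.2, 48.1 and 52.4 CPM in hCYP2B6-Tg livers. Every hCYP2B6-Tg male stood above every other library, and among Cyp2b-null livers only male 3 fell within the range of the females.

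Pfkfb1 had the largest sex difference of the 8 genes, -0.77 ± 0.15 in hCYP2B6-Tg livers (edgeR adjusted p = 0.00143; 0.587 times the male level). In Cyp2b-null livers it was -0.48 ± 0.15 (adjusted p = 0.0585), and it passed there with DESeq2 (0.0443), with quality weights in limma (0.0416) and when the 2 groups were fitted alone (0.0298). It also passed without any one of Cyp2b-null female 3 (edgeR adjusted p = 0.0346), hCYP2B6-Tg female 1 (0.0366), hCYP2B6-Tg female 5 (0.0356), Cyp2b-null male 3 (0.0410) or hCYP2B6-Tg male 3 (0.0392). The genotype estimate was 0.37 ± 0.15 in males (adjusted p = 0.585; 41.5 ± 4.66 and 53.6 ± 9.43 CPM) and 0.075 ± 0.15 in females (0.945; 29.8 ± 4.52 and 31.3 ± 7.15 CPM). The difference between those estimates was 0.29 ± 0.21, with a 95% interval of -0.15 to 0.73 (adjusted p = 0.789). Exons of Pfkfb1 and of Apex2 on the other strand overlap over 123 bases, and since the sources used here give no strand setting for the counting, reads from there cannot be told apart.

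Pfkl (chromosome 10, 77986947 to 78009807) encodes the liver subunit of phosphofructokinase, the one-way step of glycolysis on which fructose 2,6-bisphosphate acts. It was among the steadiest of the 8 genes, at 34.5, 27.4, 30.4 and 30.1 CPM in Cyp2b-null and 34.2, 30.4, 34.6 and 31.0 CPM in hCYP2B6-Tg females. Males had 32.6, 25.0, 34.4 and 32.6 CPM in Cyp2b-null and 34.0, 33.0, 31.0 and 32.3 CPM in hCYP2B6-Tg livers. The 4 groups overlapped throughout, with means of 30.6 ± 2.94, 32.6 ± 2.14, 31.2 ± 4.20 and 32.6 ± 1.25 CPM. In the 4 pairwise comparisons its estimates ran from -0.026 to 0.090 (edgeR adjusted p 0.889 to 0.998). The 95% interval of the genotype effect was -0.13 to 0.31 in females and -0.16 to 0.28 in males.

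Gapdh (chromosome 6, 125161852 to 125166467) encodes glyceraldehyde 3-phosphate dehydrogenase, a reversible step of both pathways that is among the most abundant mRNAs of most cells and a common reference gene. In these counts it was scarce. Cyp2b-null females held 22, 20, 28 and 32 counts, hCYP2B6-Tg females 20, 39, 22 and 37, Cyp2b-null males 27, 23, 23 and 16 and hCYP2B6-Tg males 33, 18, 33 and 29. That is 422 counts in all 16 libraries together, or group means of 3.38 ± 0.330, 3.82 ± 0.977, 3.36 ± 1.08 and 3.73 ± 0.950 CPM in the same order.

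Gapdh was the one gene of the 8 whose mRNA sequence is largely shared with other annotated genes. Of the 1371 windows of 50 bases in its principal GENCODE M21 transcript, 82.5% occur letter for letter, on either strand, in transcripts of other genes, against 0% for Slc2a2, Pfkfb1, Pck1, G6pc, Fbp1 and Pcx and 0.0543% for Pfkl. Counting all its transcripts, 223 other genes share at least 1 such window with it, among them Gm7336 (1131 windows), Gm12033 (903) and Gm5559 (903). Of these 223 genes 198 have a row in the count table, and those rows together held 354 to 581 counts a library. Many of these counts lay in genes that share few windows with Gapdh. Of 7391 counts over all libraries, Peli2 (84 windows) held 3111, Gm5345 (16 windows) 985 and Iffo1 (19 windows) 460. Gm7336, Gm12033 and Gm5559 held 254, 513 and 194. The sources used here do not give how reads that map to several places were treated, and the part of the shared sequence in the low Gapdh count was not tested. Exons of Gapdh also overlap those of Iffo1 on the other strand over 68 bases. Its fold changes, -0.022 to 0.20 over the 5 comparisons (edgeR adjusted p 0.902 to 0.993), rest on 16 to 39 counts a library, and its counts cannot be read as the full level of Gapdh mRNA.

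Pck1 (chromosome 2, 173153073 to 173159274) encodes the cytosolic phosphoenolpyruvate carboxykinase, which starts gluconeogenesis from oxaloacetate and is controlled mainly through its transcription. Females spanned a wide range in both genotypes, with 1477, 1589, 2644 and 715 CPM in Cyp2b-null and 715, 2320, 1545 and 2345 CPM in hCYP2B6-Tg livers. Males were closer together, with 1008, 1250, 937 and 826 CPM in Cyp2b-null and 1865, 1652, 1545 and 1120 CPM in hCYP2B6-Tg livers. The lowest hCYP2B6-Tg male, number 5, lay below the highest Cyp2b-null male, number 2, and the other 3 lay above all 4.

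The highest library of a group had 3.70 times the Pck1 level of the lowest in Cyp2b-null females, 3.28 times in hCYP2B6-Tg females, 1.51 times in Cyp2b-null males and 1.67 times in hCYP2B6-Tg males. Cyp2b-null males averaged 1005 ± 180 CPM and hCYP2B6-Tg males 1545 ± 313 CPM, which gave a log2 estimate of 0.62 ± 0.40 (edgeR adjusted p = 0.812). The 95% interval, -0.24 to 1.48, was the widest of the 8 genes in this comparison. In females the estimate was 0.11 ± 0.40 (adjusted p = 0.980; 1606 ± 793 and 1731 ± 773 CPM). Sex gave 0.68 ± 0.40 in Cyp2b-null (adjusted p = 0.385; 0.33 to 0.92 with 1 library left out) and 0.16 ± 0.40 in hCYP2B6-Tg livers (0.859).

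G6pc (chromosome 11, 101367716 to 101377903) encodes the catalytic subunit of glucose 6-phosphatase, the last step before glucose leaves the hepatocyte through GLUT2. Females had 286, 158, 303 and 257 CPM in Cyp2b-null and 222, 193, 141 and 257 CPM in hCYP2B6-Tg livers. Males had 232, 202, 174 and 129 CPM in Cyp2b-null and 155, 205, 191 and 236 CPM in hCYP2B6-Tg livers. The 4 groups overlapped, with means of 251 ± 64.9, 203 ± 49.0, 184 ± 43.9 and 197 ± 33.3 CPM. G6pc was the one gene of the 8 with a negative genotype estimate in females, -0.31 ± 0.24 (edgeR adjusted p = 0.817), and it had 0.096 ± 0.24 in males (0.969). Its sex estimate was 0.45 ± 0.24 in Cyp2b-null (adjusted p = 0.330) and 0.046 ± 0.24 in hCYP2B6-Tg livers (0.941).

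Fbp1 (chromosome 13, 62864753 to 62888298) encodes fructose 1,6-bisphosphatase, the one-way enzyme opposite phosphofructokinase, which fructose 2,6-bisphosphate inhibits. Its levels were 907, 1118, 1127 and 1298 CPM in Cyp2b-null and 1077, 1164, 1039 and 1218 CPM in hCYP2B6-Tg females. Males had 985, 1003, 1108 and 1007 CPM in Cyp2b-null and 1089, 1127, 1104 and 1153 CPM in hCYP2B6-Tg livers. The libraries were close together, and the hCYP2B6-Tg males, at 1118 ± 27.8 CPM, had the smallest coefficient of variation of any group of the 8 genes, 2.49%. The genotype estimate was 0.12 ± 0.088 in males (edgeR adjusted p = 0.827) and 0.015 ± 0.088 in females (0.987), and the 95% interval in females was -0.17 to 0.20.

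Pcx (chromosome 19, 4510472 to 4621752) encodes pyruvate carboxylase, the mitochondrial enzyme that makes the oxaloacetate Pck1 uses. It had 492, 428, 469 and 404 CPM in Cyp2b-null and 460.2, 534, 557 and 525 CPM in hCYP2B6-Tg females. Males had 575, 543, 592 and 515 CPM in Cyp2b-null and 566, 640.0, 684 and 539 CPM in hCYP2B6-Tg livers. All 4 Cyp2b-null males lay above all 4 Cyp2b-null females, which 6.64% of all tested genes also showed, and hCYP2B6-Tg female 4 (557) reached above the lowest hCYP2B6-Tg male (539).

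Pcx was lower in Cyp2b-null females than males, at -0.31 ± 0.089 (edgeR adjusted p = 0.0307; 448 ± 39.5 and 556 ± 34.0 CPM). In hCYP2B6-Tg livers the estimate was -0.23 ± 0.089 (adjusted p = 0.113; 519 ± 41.5 and 607 ± 66.7 CPM). The call in Cyp2b-null livers was lost without any one of Cyp2b-null female 3 (adjusted p = 0.0766), female 5 (0.109), male 1 (0.0759), male 2 (0.0551) or male 3 (0.102). The genotype estimate was 0.21 ± 0.089 in females (edgeR adjusted p = 0.601) and 0.13 ± 0.089 in males (0.821), and the difference between the sexes was -0.085 ± 0.13 (0.923).

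Summed marker levels of other cell types are given beside these sex differences, as ranges with no test. The red cell sums did not overlap between the sexes in either genotype. The Kupffer cell sums overlapped only in Cyp2b-null livers and the hepatocyte sums only in hCYP2B6-Tg livers. The stellate cell sums also overlapped only in Cyp2b-null livers, and the pancreas acinar and fat cell sums only in hCYP2B6-Tg livers. The endothelial, bile duct and T and B cell sums overlapped in both genotypes. The 4 red cell genes summed to 163 to 246 CPM in Cyp2b-null females and 282 to 406 CPM in Cyp2b-null males, and to 165 to 292 and 311 to 401 CPM in the hCYP2B6-Tg sexes. The 6 Kupffer cell and macrophage genes summed to 379 to 645 and 276 to 413 CPM in Cyp2b-null females and males, and to 396 to 477 and 309.9 to 374 CPM in hCYP2B6-Tg. The hepatocyte markers summed to 114658 to 138764 CPM in Cyp2b-null females, above the males, and to 113101 to 132100 CPM in hCYP2B6-Tg females. In hCYP2B6-Tg livers the stellate cell genes summed to 280.4 to 330.2 CPM in females and 246.4 to 277.7 CPM in males. In Cyp2b-null livers the pancreas acinar genes summed to 12.6 to 17.98 CPM in females and 19.1 to 56.6 CPM in males. The fat cell genes there summed to 0 in females and 0.721 to 2.58 CPM in males. The part of these marker sums in the sex differences of Slc2a2, Pfkfb1 and Pcx was not tested.

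Per kilobase of the principal transcript, averaged over the 4 groups, Fbp1 stood highest at 741 CPM per kb and Pck1 next at 553. Pcx followed at 131, G6pc at 86.5, Slc2a2 at 68.8, Pfkfb1 at 22.4 and Pfkl at 8.51, with Gapdh last at 2.51. The gluconeogenic enzymes thus took the first 4 places, ahead of both one-way regulators of glycolysis. Fbp1 was above Pck1 in 13 of 16 libraries, Pcx above G6pc in 14 and G6pc above Slc2a2 in 12, so these neighbours changed places between libraries. For the other 4 steps in this order the higher gene was higher in all 16 libraries. These steps include Pfkl over Gapdh, but Gapdh counts cannot be read as its full mRNA level. The last place of Gapdh therefore holds for the counts only.

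The genes also differed in how far the libraries of one group lay apart. The within-group SD of log2 CPM was 0.59 for Pck1, 0.36 for G6pc, 0.33 for Gapdh and 0.24 for Pfkfb1, against a median of 0.24 over all tested genes. It was 0.14 for Pfkl, 0.13 for Fbp1, 0.13 for Pcx and 0.11 for Slc2a2. Among the 500 genes nearest in level, 0.6% had a larger SD than Pck1, 6% a larger one than G6pc and 10.4% a larger one than Pfkfb1. For Slc2a2, Pfkl, Gapdh, Fbp1 and Pcx that share was 49.6% to 76.0%, so their spread was ordinary for their level.

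**Figure D3:**
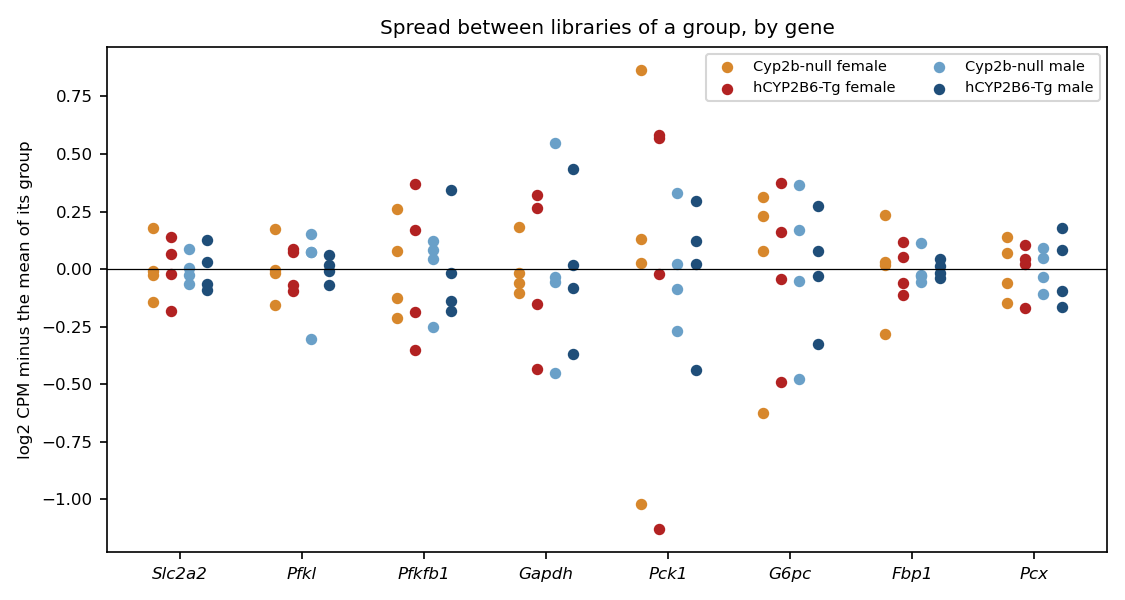
Each library's log2 CPM minus the mean of its group, by gene and coloured by group (4 points each). Pck1 in females is spread most widely, G6pc and Gapdh come next, and Slc2a2, Pfkl, Fbp1 and Pcx lie close to 0.

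Pck1 and G6pc, the 2 most variable of the gluconeogenic genes, showed no correlation that passed a test. Over the 16 libraries, with group means subtracted, their correlation was Pearson's r = 0.049 (permutation p = 0.891, adjusted 0.982) and Spearman's rho = 0.17 (permutation p = 0.582, adjusted 0.864), with r = 0.36 without the 2 libraries farthest out in the first gene. Of the 28 pairs of members 0 passed after Benjamini-Hochberg adjustment, and 3 had a permutation p under 0.05. The strongest was between Slc2a2 and Pcx, which ran opposite to each other: Pearson's r = -0.68 (permutation p = 0.0139, adjusted 0.273) and Spearman's rho = -0.74 (permutation p = 0.00651, adjusted 0.182), with r = -0.71 without the 2 libraries farthest out in the first gene. Pfkl and Pfkfb1 gave Pearson's r = -0.56 (permutation p = 0.0195, adjusted 0.273) and Spearman's rho = -0.65 (permutation p = 0.0177, adjusted 0.248), with r = -0.66 without the 2 libraries farthest out in the first gene. Pck1 and Pcx gave Pearson's r = 0.56 (permutation p = 0.0449, adjusted 0.419) and Spearman's rho = 0.34 (permutation p = 0.254, adjusted 0.59), with r = 0.12 without the 2 libraries farthest out in the first gene, a relation that rests on the 2 libraries left out.

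As a description only, the tested genes whose deviations over the 16 libraries were most like each member's were ranked by Pearson's r among 11575 genes. They were Cfhr2 (0.86) and Psph (0.86) for Slc2a2, Ift140 (0.82) and Olfml1 (0.79) for Pfkfb1, and Zfp418 and Kdm6a (0.83 both) for Pfkl. For the gluconeogenic genes they were Mphosph9 (0.90) and Zfp101 (0.89) for Pck1, Usp37 (0.91) and Trip11 (0.90) for G6pc, Nnmt (0.93) and Trpv2 (0.89) for Fbp1, and Litaf (0.90) and Vwa8 (0.89) for Pcx. For Gapdh, Dennd4b (0.84) was among them. The libraries share depth and scaling, and many genes were ranked over few libraries.

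The other genes of glucose metabolism were taken from a list of 115, of which 105 passed the filter. By edgeR genotype called 0 of 105 in females and 0 of 105 in males. At an unadjusted p under 0.05 there were 10 of 105 in females (7.59% of all tested genes) and 21 of 105 in males (7.17%). In males 68 of 105 and all 8 members had a higher estimate in hCYP2B6-Tg livers, as did 49.0% of all tested genes. The median log2 fold changes were 0.085 and 0.15, against -0.0043 over all tested genes. In females 53 of 105 and 7 of 8 did, and 50.4% of all tested genes, with medians of 0.00057 and 0.091 against 0.0016. The genes were measured in the same libraries, so these are not counts of independent genes. With DESeq2, Gbe1 (adjusted p = 0.0164) passed in males.

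For Khk, which encodes ketohexokinase, the genotype estimate in males minus that in females was 0.50 ± 0.15, which did not pass (edgeR adjusted p = 0.360). The glycogen branching enzyme gene Gbe1 had 0.31 ± 0.076 in males (edgeR adjusted p = 0.168; 186 ± 7.97 and 230.3 ± 18.2 CPM). In females the smallest p were those of Cebpb, a transcription factor of gluconeogenic genes (0.45 ± 0.13, adjusted p = 0.452), and Slc37a4, the carrier that brings glucose 6-phosphate to G6pc (0.38 ± 0.11, 0.460).

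By sex, 15 of 105 genes passed in Cyp2b-null livers, of which females had 5 at higher and 10 at lower levels, against 3.57% higher and 3.95% lower among all tested genes. In hCYP2B6-Tg livers 22 passed, 2 higher and 20 lower in females, against 4.69% and 5.56%. The glycolysis genes had 0 higher and 1 lower of 14 in Cyp2b-null and 0 higher and 4 lower in hCYP2B6-Tg livers, with median log2 fold changes of -0.093 and -0.29. The pentose phosphate genes had 2 and 3 lower of 8, and the lactate and pyruvate genes 2 higher and 2 lower of 14 and then 1 higher and 4 lower. The genes listed under glycogen had 2 and 3 lower of 14. Pgm3, a hexosamine enzyme gene placed in that list, was among those lower in each genotype. Of the 12 gluconeogenesis genes outside the members 1 was lower in each genotype.

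The lower genes in females of both genotypes included Gbe1, at -0.36 ± 0.076 in Cyp2b-null (edgeR adjusted p = 0.00305) and -0.71 ± 0.076 in hCYP2B6-Tg livers (4.71e-07). The hexosamine enzyme gene Pgm3 had -0.76 ± 0.14 and -0.81 ± 0.14 (edgeR adjusted p = 0.000650 and 0.000206). In Cyp2b-null livers Ldhd, the D-lactate dehydrogenase, had -0.70 ± 0.089 (6.80e-06), H6pd, the hexose 6-phosphate dehydrogenase of the endoplasmic reticulum, -0.66 ± 0.12 (0.000504) and Cebpb -0.58 ± 0.13 (0.00677). In hCYP2B6-Tg livers Khk had -0.59 ± 0.11 (edgeR adjusted p = 0.000508) and the alanine aminotransferase gene Gpt2 -0.61 ± 0.11 (0.000798). Ldhd, H6pd, Cebpb, Khk and Gpt2 are each given for the genotype where they were among the 6 smallest p. Their means were lower in females of the other genotype too, but the sexes overlapped there for Khk, H6pd and Cebpb. In hCYP2B6-Tg females and males the means were 101 and 136 CPM for Ldhd, 172 and 233 for H6pd and 79.6 and 110 for Cebpb. In Cyp2b-null females and males they were 370 and 392 CPM for Khk and 302 and 420 for Gpt2. The Khk range of these females, 281 to 432 CPM, held that of the males, 391 to 394 CPM. Mpc2, a subunit of the mitochondrial pyruvate carrier, went the other way, at 0.45 ± 0.079 in Cyp2b-null (0.000384) and 0.41 ± 0.078 in hCYP2B6-Tg livers (0.000947).

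**Figure D4:**
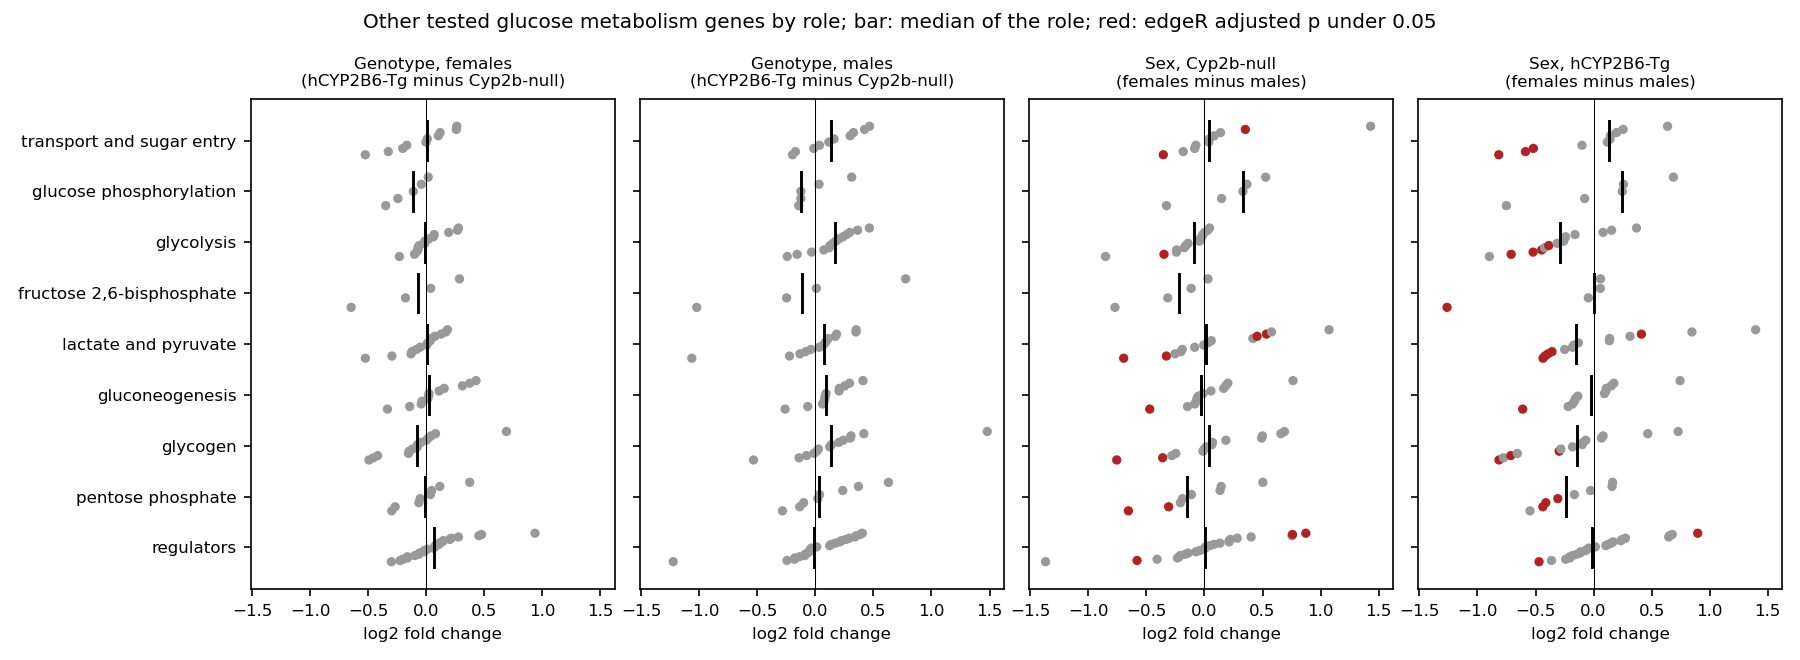
Log2 fold changes of the 105 other tested genes of glucose metabolism by role in the 4 comparisons, with a bar at the median of each role and red points where the edgeR adjusted p is under 0.05. The genotype panels hold 0 red points, and in hCYP2B6-Tg livers 20 of the 22 red points of the sex panel lie on the side of lower levels in females.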

How the data were processed

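RNA-seq of mouse liver, in 16 libraries, was deposited by the authors as 1 table of raw read counts per gene symbol and library. Per the submitters' processing notes the build was GRCm38.p6 and the tools were edgeR, Subread, GSNAP, Trimmomatic and FastQC, and per the labels' protocols RNA was extracted with Trizol and libraries made with the NEB Next Ultra kit. The sources used here give neither the annotation, nor the strand setting, nor the treatment of multiply mapped reads. Such reads, if left out, lower the counts of genes with copies.

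Groups were taken from the genotype and sex labels. Of 41585 rows 16032 held no count, and 13470 passed edgeR's filterByExpr. The counts were scaled by TMM and fitted with edgeR 4.0.16 (quasi-likelihood, robust, all 4 groups in 1 model) in R 4.3.3, and 5 contrasts were tested with Benjamini-Hochberg adjustment over all tested genes. Totals of 5584587 to 9672708 counts mean that a count of 0, read as at most 3 counts, allows 0.310 to 0.537 CPM (counting error only). Libraries of 1 group differed beyond sampling noise in all 24 pairs (chi-square per degree of freedom 6.53 to 19.7), so none was counted as a copy. The fit was tested on simulated counts with the same spread setting for every gene and changes in hCYP2B6-Tg males only. This does not cover genes as variable as Pck1. Alternatives were other scalings and filters, DESeq2 1.42.0, limma 3.58.1, the compared groups alone, a replicate block, no ribosomal RNA rows and each library left out.

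Named genes are the 8 members, up to 6 other pathway genes a comparison that passed (by smallest p; where none passed, the 2 smallest), and the 2 genes most like each member. Some genes that this rule names are not reported here. The members and lists were chosen with earlier results of these data known. Correlations between members used log2 CPM (prior count 2) less the group mean and 100000 permutations within groups. Transcript lengths and shared windows are from GENCODE M21, and coordinates and promoters from RefSeq. The human CYP2B6 transcript was not analysed here.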

Additional observations from a re-analysis of the deposited data

Results flagged for a closer look

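Of 72 groups of 4 libraries (18 genes: the 8 members and 10 named pathway genes), 3 held a library that lay far from its group, and chance gives about 1 such group in 20. The 8 members had none. Mpc2 stood at 210.0 CPM in hCYP2B6-Tg male 2, against 184 in the nearest of the others. Gbe1 stood at 128 CPM in hCYP2B6-Tg female 4, against 144 in the nearest. Pgm3 stood at 14.2 CPM in Cyp2b-null female 3, against 23.3 in the nearest.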

How the results depend on the processing

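The lower Slc2a2 and Pfkfb1 levels of hCYP2B6-Tg females passed in 10 of 10 other settings and with each of 16 libraries left out. The count of members called for sex in Cyp2b-null livers was 2 with DESeq2, 2 with limma's quality weights and 2 when only the groups compared were fitted, since Pfkfb1 then passed too, and 0 to 2 with 1 library left out. It was 0 without Cyp2b-null female 5, male 1 or male 2, and 2 without hCYP2B6-Tg female 1, female 5 or male 3. Genes called over the whole table for genotype numbered 3 without a filter and 12 with DESeq2 in females, and 43 with DESeq2, 6 with limma voom and 25 with quality weights in males. For the difference between the sexes they numbered 0 with library totals only, 16 with DESeq2 and 3 with voom. With 1 library left out these ran from 0 to 1 in females (1 without Cyp2b-null or hCYP2B6-Tg female 1), from 0 (without Cyp2b-null male 4) to 23 (without Cyp2b-null female 1) in males and from 0 to 12 (without hCYP2B6-Tg female 1) for the difference. The cause was not tested.

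Same-numbered samples showed little sign of pairing: their deviations correlated at -0.11 to 0.12 over 12 pairs, 1 over 0.1, and 3 matched their own number best. Such low correlations do not show that the samples were unpaired. With the replicate block 2 genes were called for genotype in females and 5 in males, Pcx in Cyp2b-null livers had -0.30 (adjusted p = 0.0676) and Pfkfb1 -0.53 (0.0393). The block turned the sign for Gapdh in the difference between sexes (0.11) and in hCYP2B6-Tg livers by sex (-0.036), and for G6pc by sex in hCYP2B6-Tg livers (-0.090).

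Estimates near 0 that did not pass also changed sign. For the difference between sexes Pfkl had 0.0063 without a filter and 0.036 with quality weights, and Gapdh 0.0091 without a filter and 0.024 with voom. By sex Pfkl had 0.018 with quality weights in Cyp2b-null livers, and 0.039 with library totals only and 0.00015 without ribosomal RNA rows in hCYP2B6-Tg livers. In hCYP2B6-Tg livers G6pc had -0.033 with quality weights, and Fbp1 -0.0018 with RLE scaling, -0.0085 without a filter and -0.0017 with DESeq2.

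With 1 library left out the genotype estimate ran in females from -0.060 to 0.18 for Pfkfb1, -0.14 to 0.46 for Pck1 and -0.071 to 0.097 for Fbp1, and in males from -0.030 to 0.12 for Pfkl and -0.042 to 0.23 for G6pc. The difference between sexes ran from -0.12 to 0.029 for Pfkl and -0.18 to 0.18 for Gapdh. By sex in Cyp2b-null livers Pfkl ran from -0.12 to 0.028 and Gapdh from -0.11 to 0.23. In hCYP2B6-Tg livers Pfkl ran from -0.034 to 0.030, Gapdh from -0.065 to 0.20, Pck1 from -0.017 to 0.42, G6pc from -0.086 to 0.18 and Fbp1 from -0.032 to 0.040. Gapdh had 16 to 39 counts a library, against at least 145 for the other 7 genes, so counting error weighs most on its values.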
